A study of Drosophila melanogaster with 6 samples.

Results

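The genes described are 10 members of the JmjC family of Drosophila melanogaster, chosen by gene symbol: Kdm4A, Kdm3, Kdm5 (also written lid), Utx, Jarid2, JMJD4, JMJD5, JMJD6, JMJD7 and NO66. Each was read by 1 probe set that names that gene alone, so 10 of 11983 genes on the Affymetrix arrays were followed and 10 of 10 had a value. Total RNA came from whole 1st instar larvae kept at 25 °C, with 200 larvae in each sample. All were taken at about 48 after the eggs were laid, a time that the labels give without a unit. The mutant larvae carried the KG04636 allele of dKDM4A over a deletion of the gene, written ∆dKDM4A. The control larvae, titled wt, carried precise excisions of KG06436 and NP0618 at dKDM4A, so both of their chromosomes once held an insertion at this locus. The labels do not settle whether KG06436 and the KG04636 of the mutant are 1 insertion. There were 3 arrays in each group, titled as biological replicates 1, 2 and 3, and p-values measure the spread between these samples alone. The labels give neither sex nor the extent of the deletion. The comparison shows how gene expression differed between these mutant and control larvae. Loss of Kdm4A cannot be told apart from other differences between their chromosomes. For the other family members followed here, the comparison shows whether they were expressed at other levels in the mutant.

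JmjC domains bind iron and 2-oxoglutarate and use oxygen to hydroxylate their substrates. In the histone demethylases of the family the hydroxylated methyl group leaves the lysine as formaldehyde, so that the enzymes remove methyl marks that methyltransferases have set. Not every member is a demethylase. Some hydroxylate side chains of other proteins, and Jarid2 has lost the catalytic residues. The word demethylases therefore names a part of these 10 genes, and the arrays measure their RNA, not the activity of the enzymes or the histone marks.

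Larval gut protease genes had log2 values from 11.3 to 14.5 in mutant arrays and from 11.6 to 14.5 in control arrays (4 genes). All 4 were lower in the mutant in 3 of 3 pairs, as were 19.2% of all genes, with differences of -0.31 to -0.08. None passed (lowest limma adjusted p = 0.821). The groups did not overlap for 1 of the 4, alphaTry, beside 10.3% of all genes. The part of these genes in the results below was not tested. The larval cuticle gene Lcp65Ac gave 12.6, 12.7 and 11.9 in mutant arrays 1, 2 and 3, and 12.3, 10.7 and 10.7 in control arrays 1, 2 and 3, higher in the mutant in 3 of 3 pairs with overlapping groups. Its difference of 1.14 (SE 0.46) did not pass (limma adjusted p = 0.914), and its part in the results below was not tested. Glue genes of the third instar salivary gland lay from 3.11 to 5.32 in mutant arrays and from 3.15 to 5.32 in control arrays (5 genes), where the array medians over all probe sets were 5.29 to 5.37. Lsp2, a storage protein gene of the third instar fat body, lay from 4.89 to 5.20 in mutant arrays and from 5.07 to 5.28 in control arrays. Yolk protein genes of adult females lay from 3.63 to 5.68 in mutant arrays and from 3.61 to 5.87 in control arrays (3 genes). Testis genes lay at 4.91 or below in mutant arrays and 5.10 or below in control arrays (4 genes). Maternal embryo genes lay at 4.28 or below in mutant arrays and 4.86 or below in control arrays (3 genes). The 3′ actin control probe set exceeded the 5′ one, a difference that grows as RNA degrades, by 2.34 to 2.39 on the log2 scale in both arrays numbered 1 and by 1.53 to 1.84 in the other 4 arrays.

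Kdm4A, which encodes a demethylase of trimethylated H3K36 that in Drosophila binds the heterochromatin protein HP1a, fell in the mutant. Its log2 values were 3.44, 3.41 and 3.29 in mutant arrays 1, 2 and 3, against 5.18, 5.26 and 5.46 in control arrays 1, 2 and 3. Over all probe sets, the mutant values lie below the lower quartile of every array (3.69 to 3.79) and the control values near the array medians. The groups did not overlap. Among the genes analysed, the control values ranked lower, at percentiles 33.7, 33.7 and 35.9 in control arrays 1, 2 and 3. The mean of the mutant was 0.264 of the control mean on the linear scale (95% interval 0.222 to 0.314), a log2 difference of -1.92 with an SE of 0.10 (limma, adjusted p = 0.00174 over all genes). Mutant minus control was -1.74, -1.85 and -2.17 in the pairs numbered 1, 2 and 3. The 2 groups also departed in opposite ways within their own spread: the array numbered 3 was the lowest of the mutant arrays and the highest of the control arrays. Values this low sit near the floor of the array scale, so the fold may understate the loss of RNA, and the labels do not say whether the probes lie in the deleted part. Kdm4A is itself the gene altered in the mutant larvae, so its lower RNA serves as a check of the genotype. From array values of whole larvae alone, less RNA per cell and fewer cells with the RNA cannot be told apart. With both arrays numbered 1 taken out, and so 2 arrays left in each group, the difference was -2.01 and missed the threshold (limma adjusted p = 0.077). The same arrays with the replicate number as a block, a fit chosen after seeing the data, gave a limma adjusted p of 0.0122.

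**Figure D1:**
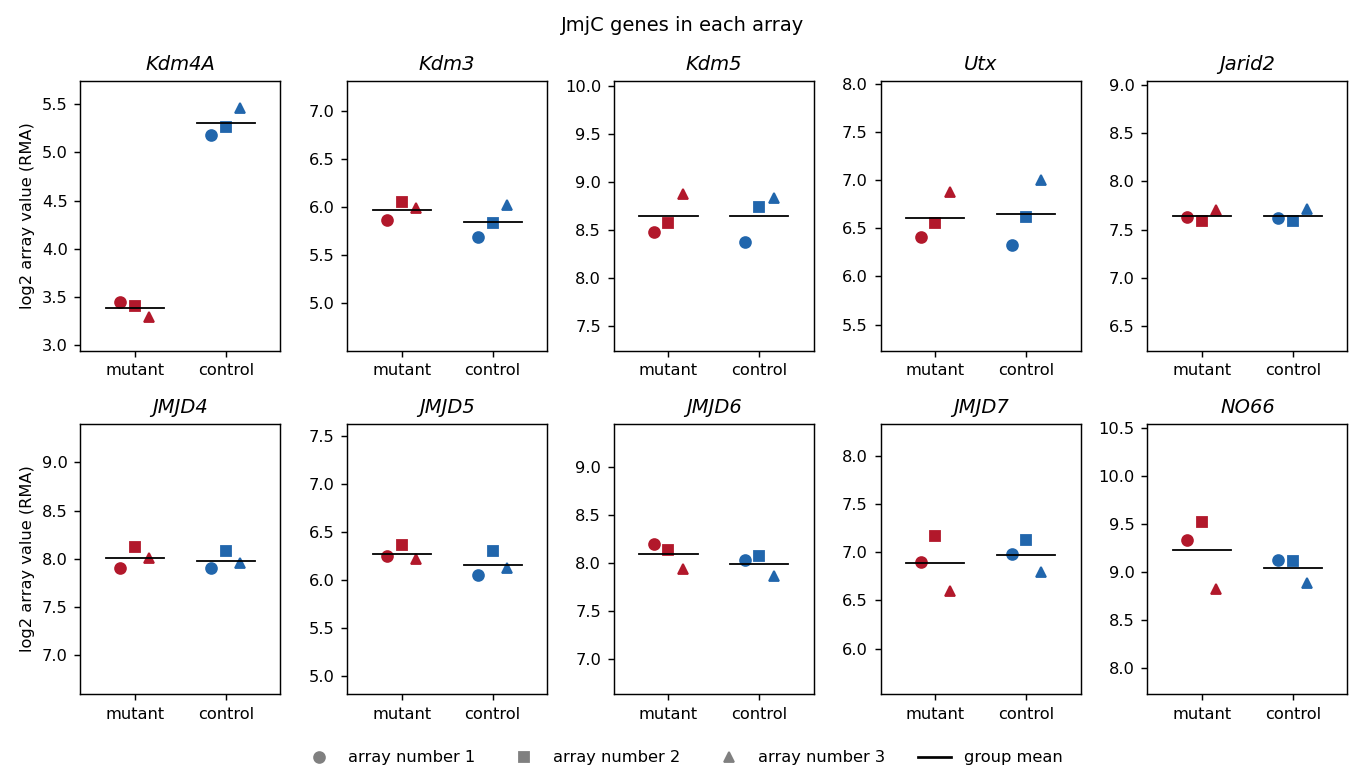
Log2 array values of the 10 JmjC genes in each array, with mutant arrays on the left and control arrays on the right of each panel; symbols give the array number, black lines the group mean, and every panel spans the same height in log2 units. Only in the Kdm4A panel are the groups apart, with mutant values of 3.29 to 3.44 and control values of 5.18 to 5.46.

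None of the other 9 JmjC genes passed the test between the genotypes, and their groups overlapped in 9 of 9. At the same threshold, an adjusted p under 0.05, limma called 19 of 11983 genes, which is 0.159%, and 11 of these, 0.0918%, were lower in the mutant. The replicate number as a block raised the count to 98 genes (0.818%), with Kdm4A again the only one of the 10 JmjC genes among them (adjusted p = 0.00625). In the fit without the block, leaving out mutant array 1, mutant array 2 or control array 2 lowered the count of 19 to 5 genes, and 0 genes were called without both arrays numbered 1 (441 had an unadjusted p under 0.05). With the block, 89 genes were called without both arrays numbered 1, in a fit chosen after seeing the data. The 9 differences lay between -0.08 and 0.19 on the log2 scale, with limma adjusted p = 0.998 for each, and 0 of 9 had an unadjusted p under 0.05, against 5.27% of all genes. Their median absolute difference was 0.08, beside 0.09 over all genes. Groups of 3 did not overlap in 10.3% of all genes.

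**Figure D2:**
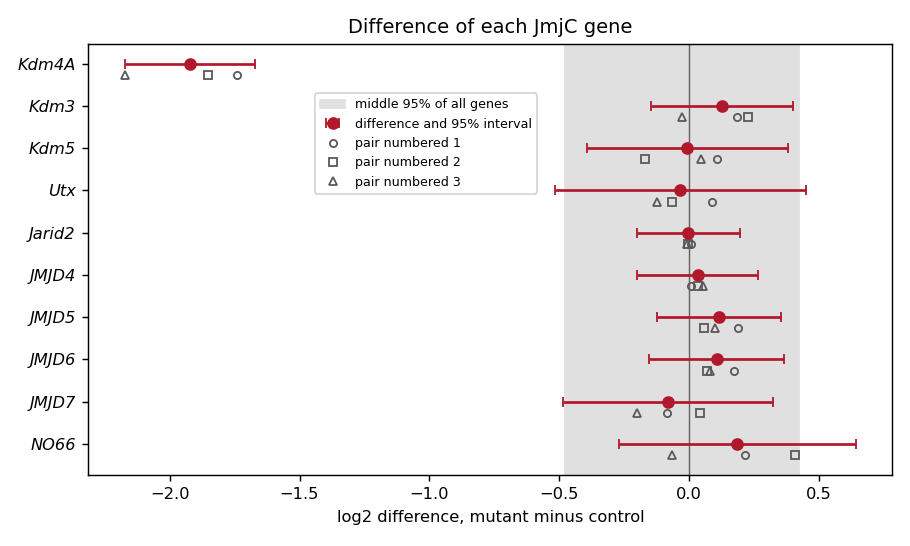
Log2 difference, mutant minus control, of each JmjC gene (filled points) with its 95% limma interval (bars), the differences of the pairs of equal array number (open symbols) and the range that holds the middle 95% of all 11983 genes (grey, -0.48 to 0.42). Kdm4A lies at -1.92, outside the grey range, and the intervals of the other 9 genes all include 0.

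Among the histone demethylases, Kdm3 belongs to the KDM3 family, whose enzymes act on methylated H3K9. Its log2 values were 5.87, 6.05 and 5.99 in mutant arrays 1, 2 and 3, and 5.69, 5.83 and 6.02 in control arrays 1, 2 and 3. The mutant arrays were higher in the pairs numbered 1 and 2 and lower in the pair numbered 3, and the groups overlapped. The difference was 0.13 (SE 0.11), and the interval of the ratio ran from 0.903 to 1.32. Enzymes of the KDM4 family can also act on methylated H3K9. Whether Kdm3 makes up for the loss of Kdm4A was not tested, and RNA levels do not give enzyme activity.

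Kdm5 encodes the demethylase of trimethylated H3K4, known in flies as little imaginal discs. It had log2 values of 8.48, 8.57 and 8.88 in mutant arrays 1, 2 and 3, and 8.38, 8.75 and 8.83 in control arrays 1, 2 and 3. Both genotypes spanned nearly the same range, and the difference of -0.01 (SE 0.16) was smaller than the SD within the groups, 0.21 in the mutant and 0.24 in the control. The ratio had an interval from 0.760 to 1.30, and from 0.848 to 1.17 with the replicate number as a block.

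Utx encodes the H3K27 demethylase that opposes Polycomb repression. Its log2 values were 6.41, 6.55 and 6.87 in mutant arrays 1, 2 and 3, and 6.32, 6.62 and 6.998 in control arrays 1, 2 and 3. In both genotypes the array numbered 1 was lowest and the array numbered 3 highest. The difference was -0.03 (SE 0.20) and the interval of the ratio, 0.699 to 1.36, was the widest of the 10 genes on the log2 scale. With the replicate number as a block the SE was 0.09 and the interval of the ratio ran from 0.841 to 1.13.

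Jarid2, the family member without catalytic activity that associates with the H3K27 methyltransferase complex PRC2, was the steadiest of the 10 genes between genotypes. Mutant arrays 1, 2 and 3 gave 7.63, 7.59 and 7.70 on the log2 scale, and control arrays 1, 2 and 3 gave 7.62, 7.59 and 7.71. The pairs differed by 0.01, -0.0049 and -0.01. The ratio of mutant to control was 0.998, with an interval from 0.869 to 1.15, the narrowest of the 10 on the log2 scale (SE 0.08). Of all genes, 98.1% had a larger absolute difference.

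The remaining members are related to human enzymes that hydroxylate proteins. JMJD4, whose human counterpart modifies the translation termination factor eRF1, had log2 values of 7.91, 8.12 and 8.01 in mutant arrays 1, 2 and 3, and 7.90, 8.08 and 7.96 in control arrays 1, 2 and 3. In both genotypes the array numbered 2 was highest and the array numbered 1 lowest. The difference was 0.03 (SE 0.10), and the ratio had an interval of 0.870 to 1.20.

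JMJD5, also named Kdm8, gave 6.25, 6.36 and 6.22 in mutant arrays 1, 2 and 3, and 6.06, 6.30 and 6.12 in control arrays 1, 2 and 3. The mutant was higher in 3 of 3 pairs, and the groups still overlapped. The difference was 0.12 (SE 0.10), with an interval of the ratio from 0.918 to 1.28.

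JMJD6, whose human counterpart hydroxylates lysines of splicing factors, had 8.20, 8.14 and 7.94 in mutant arrays 1, 2 and 3, and 8.03, 8.07 and 7.86 in control arrays 1, 2 and 3. It too was higher in the mutant in 3 of 3 pairs, by 0.17, 0.07 and 0.08, with overlapping groups. The difference was 0.11 (SE 0.11), and the ratio had an interval from 0.899 to 1.29. JMJD4, JMJD5, JMJD6 and Kdm4A were the 4 of 10 genes whose pairs all lay on the same side, where 33.7% of all genes did so.

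JMJD7, related to a human lysyl hydroxylase of DRG GTPases, gave 6.90, 7.17 and 6.59 in mutant arrays 1, 2 and 3, and 6.98, 7.13 and 6.79 in control arrays 1, 2 and 3. The arrays numbered 2 were highest and those numbered 3 lowest in both genotypes. The difference was -0.08 (SE 0.17), with an interval of the ratio from 0.714 to 1.25, and from 0.812 to 1.10 with the replicate number as a block.

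NO66 encodes a protein whose human counterpart hydroxylates a histidine of a ribosomal protein and has also been described as an H3K36 demethylase. Its log2 values were 9.34, 9.53 and 8.82 in mutant arrays 1, 2 and 3, and 9.12, 9.12 and 8.89 in control arrays 1, 2 and 3. The highest value and the lowest both came from mutant arrays. Its difference of 0.19 (SE 0.19) had an interval of the ratio from 0.829 to 1.56, and from 0.935 to 1.38 with the replicate number as a block. It rested on single arrays, with 0.04 left without mutant array 2, 0.11 without control array 3 and 0.39 without mutant array 3. The SD was 0.36 within the mutant, the largest in any group of the 10 genes, and 0.13 within the control.

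The array numbers were compared as well. A moderated F-test of the 3 numbers, with genotype in the limma fit, called 190 of 11983 genes at an adjusted p under 0.05, which is 1.59%, and 0 of the 10 JmjC genes. Without correction, 4 of the 10 had a p under 0.05, beside 22.5% of all genes. Of these Utx had the smallest (limma adjusted p = 0.0929), with means of 6.37, 6.58 and 6.94 in the arrays numbered 1, 2 and 3. The means of Kdm5 were 8.43, 8.66 and 8.86 in the arrays numbered 1, 2 and 3 (limma adjusted p = 0.179), so both arrays numbered 3 lay above both arrays numbered 1 for Kdm5 as for Utx. JMJD7 and NO66 had their lowest means in the arrays numbered 3. For JMJD7 the means were 6.94, 7.15 and 6.69 in the arrays numbered 1, 2 and 3 (limma adjusted p = 0.146). For NO66 they were 9.23, 9.32 and 8.86 in the arrays numbered 1, 2 and 3 (limma adjusted p = 0.197).

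The spread between the highest and lowest number was 0.57 for Utx, and 11.9% of all genes had a larger one. It was 0.06 for Kdm4A, the smallest of the 10 genes, and 0.12 for Jarid2, and the median was 0.22 for the 10 genes as for all genes. These spreads are of means over both genotypes. For Kdm4A the arrays numbered 3 offset each other in such a mean, at 3.29, lowest of the mutant, and 5.46, highest of the control. With both arrays numbered 2 left out, Utx passed (limma adjusted p = 0.0402), while the count over all genes became 1257. It became 0 without both arrays numbered 3, with 1025 genes at an unadjusted p under 0.05. The actin gap given above was larger in both arrays numbered 1, and its part in these differences was not tested.

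**Figure D3:**
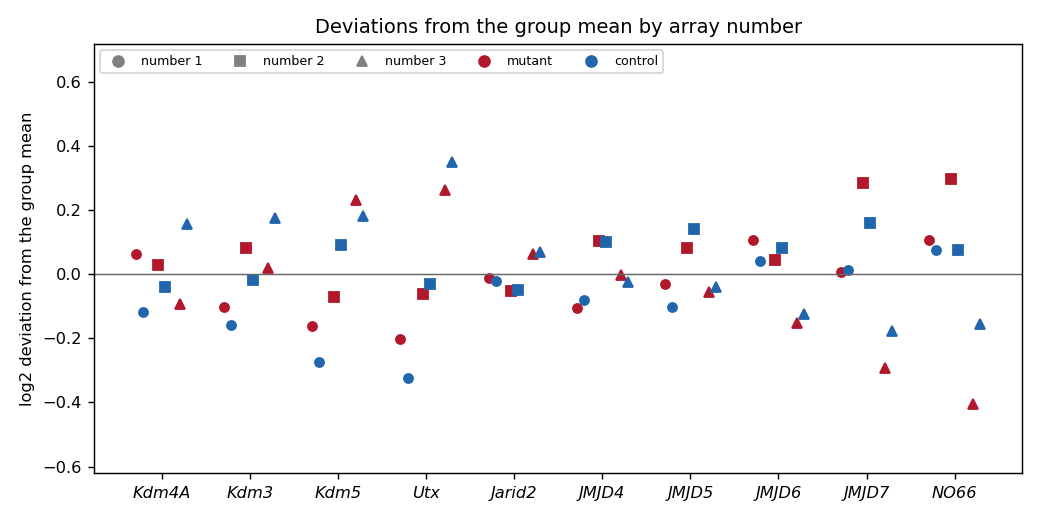
Deviation of each array from the mean of its own genotype, in log2 units, for the 10 JmjC genes; red is mutant, blue is control, and circles, squares and triangles are the arrays numbered 1, 2 and 3. For Utx and Kdm5 both triangles lie above both circles, for JMJD7 and NO66 both triangles lie lowest, and for Kdm4A the triangles of the genotypes lie on opposite sides of 0.

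Of 3 further JmjC genes, HSPBAP1 had a probe set of its own. Kdm4B had 3 probe sets that name other genes as well, and Kdm2 had 0 probe sets. Kdm2 and Kdm4B were therefore not analysed here. HSPBAP1 gave 5.01, 5.28 and 5.31 in mutant arrays 1, 2 and 3, and 5.17, 5.12 and 5.36 in control arrays 1, 2 and 3, a difference of -0.02 (SE 0.12, limma adjusted p = 0.998).

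The lists of other chromatin genes (H3K9, H3K36, H3K4 and H3K27 methylation with Polycomb, and histone acetylation and deacetylation) and of ecdysone response genes held 64 genes, of which 52 had a probe set of their own. By limma 0 of 52 were called, with 2, nej and Hr3, at an unadjusted p under 0.05, beside 5.27% of all genes. Also 0 were called with the replicate block, with 3, the same genes and Hr4, at an unadjusted p under 0.05, beside 11.2% of all genes. The mutant was lower for 30 of 52 and higher for 22, beside 51.8% lower among all genes. The groups did not overlap for 4 of 52 genes, HP6, nej, Hr3 and Eip93F, beside 10.3% of all genes. Some genes have several probe sets of their own, among them nej with 2, Eip93F with 2 and Hr4 with 3. Values are given for the probe set with the highest mean alone. With all probe sets in the limma fit, 0 of the 52 genes were called.

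For H3K9 and H3K36 methylation, 8 of 12 genes were lower and 4 higher, with a median difference of -0.05, beside -0.01 over all genes. HP6, which encodes an HP1-related protein, had 4.79, 4.87 and 4.86 in mutant arrays 1, 2 and 3, and 4.95, 4.94 and 5.20 in control arrays 1, 2 and 3, a difference of -0.20 (SE 0.10) without overlap. Set2, the methyltransferase that makes the H3K36 mark removed by Kdm4A, differed by -0.20 (SE 0.14), and HP4, which encodes a protein associated with heterochromatin, by -0.19 (SE 0.14). Both had overlapping groups. For H3K4 methylation, 5 of 12 genes were lower and 7 higher, between -0.08 and 0.08. That list holds trr, an H3K4 methyltransferase whose complex contains Utx, with a difference of 0.08 (SE 0.14), and ash2, a subunit shared by such complexes, also with 0.08 (SE 0.11).

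For H3K27 methylation and Polycomb, 9 of 15 genes were lower and 6 higher, with a median of -0.03. Pc, which encodes the reader of the H3K27 mark that Utx removes, gave 5.87, 5.83 and 5.99 in mutant arrays 1, 2 and 3, and 5.93, 6.003 and 6.07 in control arrays 1, 2 and 3. It was lower in the mutant in 3 of 3 pairs, with overlapping groups and a difference of -0.10 (SE 0.09). The PRC2 subunit gene escl differed by -0.18 (SE 0.13). Of 4 measured genes of histone acetylation and deacetylation, nej, which encodes the acetyltransferase CBP, had 7.89, 7.87 and 8.13 in mutant arrays 1, 2 and 3, and 7.53, 7.29 and 7.60 in control arrays 1, 2 and 3. Its groups did not overlap, and the difference of 0.49 (SE 0.12) missed the threshold (limma adjusted p = 0.448, and 0.0978 with the replicate block).

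Drosophila Kdm4 enzymes have been linked to signalling by the molting hormone ecdysone. Of 9 measured ecdysone response genes, 5 were lower and 4 higher in the mutant. Hr3, a nuclear receptor gene of this cascade, had 5.17, 4.98 and 5.10 in mutant arrays 1, 2 and 3, and 5.60, 5.54 and 5.21 in control arrays 1, 2 and 3, with a difference of -0.37 (SE 0.13, limma adjusted p = 0.79). Hr4 had the largest difference of the list, -1.16 (SE 0.52, limma adjusted p = 0.966). Its control arrays gave 6.96, 6.02 and 4.79, the lowest of which fell inside the mutant range of 4.40 to 5.06. In the pairs numbered 1, 2 and 3 mutant minus control was -1.90, -1.20 and -0.40 for Hr4. With the replicate block its SE was 0.27, and it was still not called (limma adjusted p = 0.185). Eip93F went the other way, at dim values and without overlap. Mutant arrays 1, 2 and 3 gave 3.51, 3.48 and 3.72, and control arrays 1, 2 and 3 gave 3.35, 3.39 and 3.31. The difference of Eip93F was 0.22 (SE 0.10, limma adjusted p = 0.966).

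**Figure D4:**
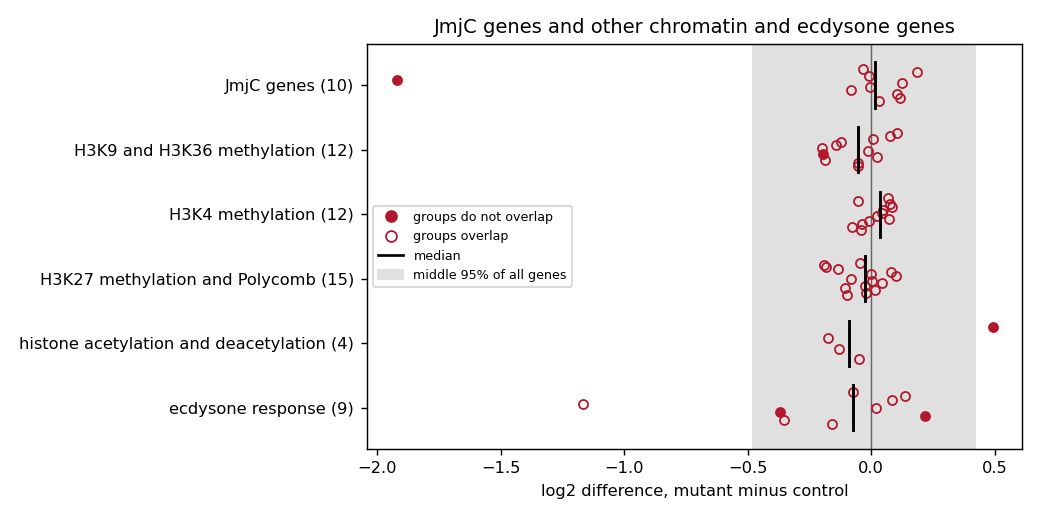
Log2 difference, mutant minus control, of the 10 JmjC genes and of the measured genes of 5 lists (number of genes in parentheses); filled points are genes whose 3 mutant and 3 control values do not overlap, black lines the medians and grey the middle 95% of all genes (-0.48 to 0.42). Outside the grey range lie Kdm4A at -1.92, Hr4 at -1.16 and nej at 0.49, and of these Kdm4A passed the test over all genes.

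The genes whose values followed Kdm4A most closely over the 6 arrays were Sclp, eIF4E3, Cbl, Ugt35B1 and CG2924, with Pearson's r of 0.997, 0.997, 0.997, 0.995 and 0.984. These were taken from all genes with an SD of at least 0.2 over the arrays, and the gap between the genotypes carries most of each r. Sclp gave 7.68, 7.66 and 7.68 in mutant arrays 1, 2 and 3, and 8.60, 8.72 and 8.84 in control arrays 1, 2 and 3. Its control arrays had the same order as those of Kdm4A. The cap-binding factor gene eIF4E3 gave 5.12, 5.01 and 4.62 in mutant arrays 1, 2 and 3, and 7.59, 7.60 and 7.76 in control arrays 1, 2 and 3, an order like that of Kdm4A in both genotypes. Cbl and Ugt35B1 did not share the control order. In control arrays 1, 2 and 3 Cbl gave 8.12, 8.21 and 8.19, and Ugt35B1 gave 5.82, 6.18 and 6.04. The genes were picked by r over these same arrays, which favours a shared order. CG2924 gave 7.41, 7.57 and 7.52 in mutant arrays 1, 2 and 3, and 8.26, 8.40 and 8.61 in control arrays 1, 2 and 3. Its difference of -0.92 (SE 0.11) missed the threshold (limma adjusted p = 0.0572) and passed with the replicate block (limma adjusted p = 0.0239), while the other 4 passed in both fits. Among the JmjC genes themselves, r with Kdm4A ran from -0.55 for JMJD5 to 0.20 for JMJD7 over the same 6 arrays.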

How the data were processed

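The authors deposited 1 log2 value for each probe set and array. Per the submitters' processing notes these come from RMA, whose version and settings are not given in the sources used here. That they are log2 values follows from their range. RMA draws all arrays to nearly 1 distribution, so a shift shared by most genes is not visible. Probe sets with 1 gene in the platform table of 2016 were used, 13647 of 18952, and the one with the highest mean was kept per gene. Names and synonyms came from the NCBI table of Release 6, which matched 11894 genes.

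Groups were compared with limma 3.58.1 (R 4.3.3, two-sided), adjusted by Benjamini-Hochberg over 11983 genes, and array numbers by an F-test with genotype in the fit. Intervals are 95% limma intervals. Same-numbered arrays correlated in their deviations from the group mean at 0.684, 0.151 and 0.756, so the titles' numbers were taken to pair the arrays. Mutant array 2, however, correlated more with control array 1 (0.354) than with control array 2. Of the fits between genotypes, only those with the replicate block use the pairing. The others leave the number out, so their SEs and intervals include the spread between numbers. The members, lists, tests and alternatives were chosen with earlier results of these data known. Named were all members, up to 4 genes of smallest p in each list, and the 5 genes most like Kdm4A by Pearson's r. Alternatives were other normalizations, filters, priors, array weights, the replicate block and leaving out arrays. Array weights used statmod 1.5.0, and plots matplotlib 3.10.9. The number of arrays limits the precision.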

Additional observations from a re-analysis of the deposited data

How the results depend on the processing

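Kdm4A kept its call under every alternative in which it was tested, except without both arrays numbered 1 (-2.01, adjusted p = 0.077). With 1 array left out its difference ranged from -1.98 to -1.84. It lies below the level kept with the upper 60% of genes, so that filter left 0 JmjC genes called, as did leaving out both arrays numbered 1. The other 9 genes were not called between the genotypes under any alternative run, and JMJD5, JMJD6, Kdm3 and NO66 kept their direction in all of them where they were tested, NO66 with values from 0.037 to 0.388 with 1 array left out. The other 5 changed sign in places. With 1 array left out, Jarid2 ranged from -0.035 to 0.032, Kdm5 from -0.145 to 0.083, Utx from -0.195 to 0.142, JMJD4 from -0.021 to 0.084 and JMJD7 from -0.224 to 0.065. With quantile normalization Jarid2 was 0.012 and Kdm5 0.017, with median centring Jarid2 was 0.000853, and with array weights Jarid2 was 0.024 and JMJD4 -0.042. Under the replicate block, Kdm5 was 0.075 without both arrays numbered 2, and Jarid2 and Utx were 0.000245 and 0.011 without both arrays numbered 3. Over all genes the count of 19 became 11 in the upper 60%, 82 with array weights, 98 with the replicate block, 0 without both arrays numbered 1, 5 to 18 with 1 array left out, and 89, 110 and 23 with the block without both arrays numbered 1, 2 or 3. For array numbers the count of 190 became 24 in the upper 60%, 313 under the prior with trend and robust fit, 307 under array weights, 1257 without both arrays numbered 2 and 0 without both arrays numbered 3, and 1 JmjC gene, Utx, was called without both arrays numbered 2. Of the genes named in the report, the block changed the call of CG2924 alone. The fits with the block and 1 number left out were chosen after seeing the data. Filters test fewer genes and left-out arrays fewer samples; beyond that the cause was not tested. Dim values, such as those of Kdm4A in the mutant, limit what the arrays can show.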
